A study of Bos indicus x Bos taurus with 78 samples.

Results

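The microRNAs (miRNAs) miR-103 and miR-107 were described in loin muscle of steers that went on to show normal or dark-cutting beef. They were taken as the rows bta-miR-103 and bta-miR-107 of a count table, 2 of its 1030 bovine mature miRNAs, and each name matched 1 row. The table holds small RNA reads from Longissimus lumborum biopsies of 78 male Bos indicus x Bos taurus steers, 1 library a steer. Of these, 53 were labelled normal and 25 dark-cutting, with a degree written as a fraction: 8 steers at 1/4, 9 at 1/3, 3 at 1/2, 4 at 2/3 and 1 at 3/4. The labels give no age, diet, treatment, slaughter group or sequencing batch, and do not say what the fraction is a fraction of.

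A miRNA is a short RNA that represses messenger RNAs pairing with its seed, the bases near its 5′ end. MiR-103 and miR-107 are close paralogs with the same seed, and both are made from introns of pantothenate kinase genes, miR-107 from PANK1 and the copies of miR-103 from PANK2 and PANK3. Pantothenate kinase carries out the first step of coenzyme A synthesis. Silencing both miRNAs in obese mice improved insulin sensitivity, and one of their targets is caveolin-1, which stabilises the insulin receptor in fat cells. Dark-cutting beef follows low muscle glycogen at slaughter, and insulin is the main hormone that drives glycogen storage in muscle, which is why the pair is of interest in this tissue.

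Libraries held 1427817 to 4535675 counts, with a median of 3209320. MiR-1, the main miRNA of muscle fibres, held 72.3% to 88.6% of the counts in normal steers and 79.6% to 88.1% in dark-cutting steers. Of the 7 muscle fibre miRNAs listed, 6 passed the filter on low counts, and miR-208a did not. In a biopsy, a lower share of a cell type and less of its RNA per cell cannot be told apart.

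Both miRNAs were present in every library. MiR-103 had 327 to 1460 counts a library and 61522 in all, and its mean level of 237 CPM (counts scaled to library size, with TMM factors) was rank 55 among the 252 miRNAs tested between the phenotypes. Its neighbours were miR-195 at 245 CPM and miR-145 at 227 CPM. MiR-107 had 50 to 232 counts a library and 8689 in all, with a mean of 33.1 CPM at rank 122, between miR-378d at 33.9 CPM and miR-127 at 32.9 CPM. The mean level of miR-103 was thus 7.18 times that of miR-107, with no correction for length, since mature miRNAs are of nearly the same length. How reads that match both paralogs were assigned was not stated by the labels or files, so the split between the 2 rows is uncertain.

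In the normal steers miR-103 lay at 7.40 log2 CPM in the lowest steer, 7.82 at the median and 8.45 in the highest, with a mean of 7.84 ± 0.248 (SD, n = 53). In the dark-cutting steers it lay at 7.33, 7.98 and 8.38, with a mean of 7.95 ± 0.261 (SD, n = 25). The ranges overlapped almost fully: 17 of the 25 dark-cutting steers were above the normal median, 0 above the highest normal steer and 1 below the lowest. MiR-107 lay at 4.19, 4.99 and 5.61 log2 CPM in the lowest, median and highest normal steer, with a mean of 5.0 ± 0.382 (SD, n = 53). In the dark-cutting steers its values were 4.42, 5.22 and 5.68, with a mean of 5.09 ± 0.345 (SD, n = 25). Here 18 of 25 dark-cutting steers were above the normal median and 1, of degree 2/3, was above the highest normal steer.

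The first comparison asked whether muscle of dark-cutting steers differed from normal muscle in these miRNAs. The log2 fold change of miR-103 was 0.12 ± 0.06 (SE), a 1.08-fold higher level with a 95% interval from 0.994-fold to 1.18-fold. It did not pass edgeR's quasi-likelihood test (p = 0.0667, Benjamini-Hochberg adjusted p = 0.416, rank 39 by p). The log2 fold change of miR-107 was 0.08 ± 0.09 (SE), 1.06-fold, with an interval from 0.936-fold to 1.2-fold, and did not pass either (p = 0.360, adjusted p = 0.791, rank 114). Neither member was called, beside 0 of all 252 miRNAs (0%) at an adjusted p under 0.05. DESeq2 and limma-voom also called 0, and 23 miRNAs (9.13%) had an unadjusted edgeR p under 0.05, without either member. Log2 fold changes above 0 were found in 46% of all tested miRNAs. The intervals of both members include a fold of 1.

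The authors' deposited table of the same contrast gave miR-103 a log2 fold change of 0.12 ± 0.06 (their SE), with a p of 0.0519 and an adjusted p of 0.605. For miR-107 the authors' deposited table listed 0.09 ± 0.09, with a p of 0.324 and an adjusted p of 0.968.

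Markers of other cell types differed between the phenotypes by amounts that did not pass the adjusted test. All 6 white blood cell miRNAs had log2 fold changes below 0, and their summed level was 86.6 to 374 CPM (median 154, TMM scale) in normal and 80.7 to 249 CPM (median 141) in dark-cutting steers. All 5 fibroblast miRNAs were below 0 as well, with sums of 3091 to 7286 CPM (median 4032) in normal and 2921 to 4865 CPM (median 3751) in dark-cutting steers. MiR-21-5p, at a mean of 3164 CPM over all steers, made up most of these sums, so they mainly follow this 1 miRNA. Log2 fold changes above 0 were found in 1 of 5 red blood cell, 0 of 2 endothelial and 1 of 2 smooth muscle and pericyte miRNAs. They were found in 2 of 5 adipose-enriched, 2 of 2 liver and 2 of 6 muscle fibre miRNAs, beside 46% of all 252. At an unadjusted edgeR p under 0.05, 3 red and 2 white blood cell miRNAs had lower and the muscle miRNA miR-206 had higher estimates, beside 16 lower (6.35%) and 7 higher (2.78%) of all 252. No listed marker of these cell types was at 0 in all libraries, the untested miR-208a and miR-122 included. Their part in the values of miR-103 and miR-107 was not tested.

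**Figure D1:**
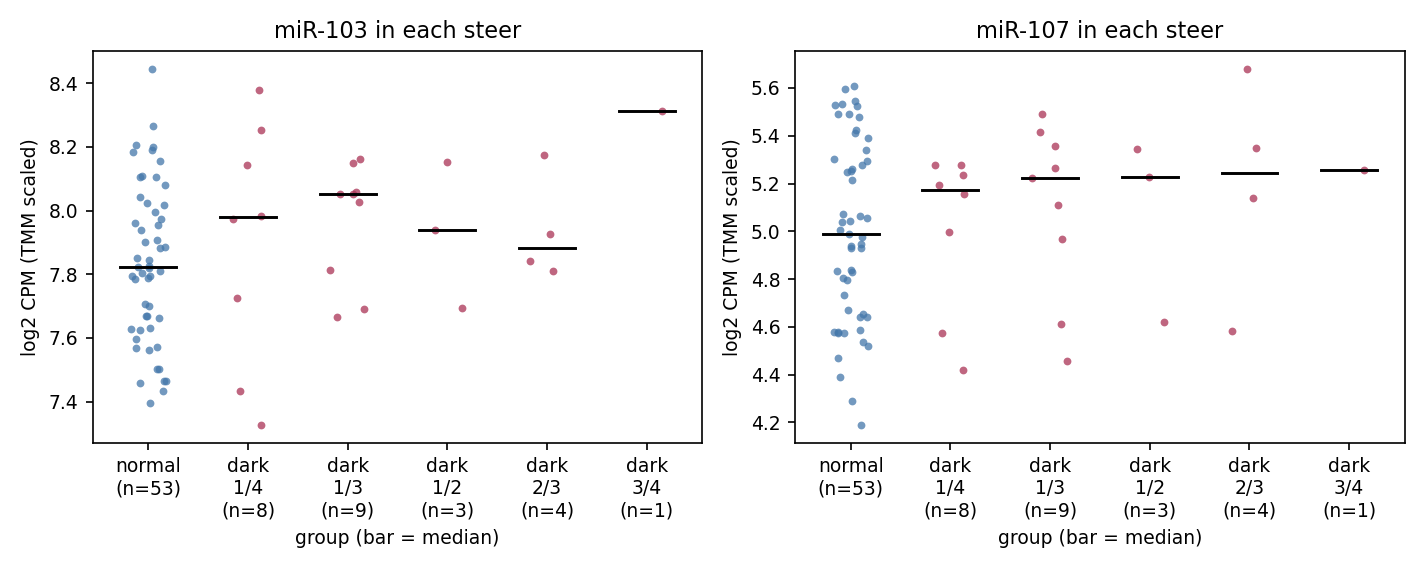
Level of miR-103 (left) and miR-107 (right) in each steer, as log2 CPM scaled by TMM, by phenotype and labelled degree; each point is 1 steer and each bar a group median. The points of every dark-cutting degree with more than 1 steer lie almost wholly within the normal range, with means from 7.90 to 7.96 for miR-103 against 7.84 in normal steers.

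The degrees were then set against the normal steers. At degree 1/4, the smallest fraction, miR-103 ran from 7.33 to 8.38 log2 CPM with a mean of 7.90 ± 0.379 (SD, n = 8). This SD was the largest of any group. The lowest of these steers in miR-103 was the lowest of all 78. MiR-107 ran there from 4.42 to 5.28, with a mean of 5.02 ± 0.334 (SD, n = 8). At degree 1/3 the means were 7.96 ± 0.190 for miR-103 and 5.10 ± 0.358 for miR-107 (SD, n = 9). In 6 of these 9 steers miR-103 was above the upper quartile of the normal steers, and 0 were below the lower quartile.

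In the 3 steers of degree 1/2, miR-103 stood at 7.94, 8.15 and 7.69 log2 CPM, and miR-107 at 5.34, 5.23 and 4.62. The steer lowest for one miRNA was lowest for the other. In the 4 steers of degree 2/3, miR-103 stood at 8.18, 7.93, 7.84 and 7.81. MiR-107 stood at 5.68, 5.14, 4.58 and 5.35 in the same steers, so the first of them was highest for both, and its miR-107 was the highest of all 78 steers. The single steer of degree 3/4 had 1460 counts of miR-103 and 173 of miR-107, or 8.31 and 5.26 log2 CPM. Its miR-103 was above 52 of the 53 normal steers and its miR-107 above 36 of them, and with 1 steer there is no test.

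By mean log2 CPM, miR-103 was ordered 3/4, 1/3, 2/3, 1/2, 1/4 and normal, and miR-107 3/4, 2/3, 1/3, 1/2, 1/4 and normal. Normal steers were thus lowest for both, and among the groups with more than 1 steer no neighbours in either order differed by more than their SD. On the scale of the degree fit, the log2 fold change of miR-103 against normal was 0.08 ± 0.10 (SE) at 1/4, 0.14 ± 0.09 at 1/3, 0.13 ± 0.15 at 1/2 and 0.0081 ± 0.13 at 2/3. For miR-107 it was 0.00039 ± 0.14, 0.11 ± 0.14, 0.09 ± 0.22 and 0.12 ± 0.20. The smallest unadjusted p was 0.141, for miR-103 at 1/3, and edgeR's adjusted p-values were 0.729 to 0.998.

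Among all 272 miRNAs in that fit, 0 (0%) were called at 1/4, 1/3 and 1/2, and 1 (0.368%) at 2/3, neither of the members. At an unadjusted p under 0.05 the counts were 3 (1.1%), 25 (9.19%), 13 (4.78%) and 7 (2.57%), and DESeq2 and limma-voom called the same numbers as edgeR, 0, 0, 0 and 1. The 4 comparisons share the 53 normal steers, so their values are not independent. TMM factors computed on 272 rather than 252 miRNAs moved the scale of the 4 libraries of degree 2/3 by 0.08 (log2) on average. In any of the 78 libraries the move was up to 0.14. With the factors of DESeq2 the value of miR-103 at 2/3 was 0.07, and with total counts without miR-1 it was 0.12. Over all 8 alternatives it ran from 0.0078 to 0.12, and without 2/3 replicate 3 it was 0.12. The part of the scaling in this value was not tested.

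The 6 contrasts between degrees gave log2 differences of -0.13 to 0.05 for miR-103 and -0.02 to 0.12 for miR-107. Neither was called in any of them (edgeR, lowest adjusted p = 0.986), beside 0 of 272 miRNAs (0%) in each contrast. Those with an unadjusted p under 0.05 numbered 9 (3.31%) in 1/3 against 1/4, 5 (1.84%) in 1/2 and 8 (2.94%) in 2/3 against 1/4, 6 (2.21%) in 1/2 and 7 (2.57%) in 2/3 against 1/3, and 3 (1.1%) in 2/3 against 1/2. The slope on the labelled fraction, with normal steers at 0, was 0.25 ± 0.14 (SE, log2 per unit of the fraction) for miR-103 (edgeR p = 0.0805, adjusted p = 0.436). For miR-107 it was 0.21 ± 0.20 (p = 0.298, adjusted p = 0.706). In that fit 1 of 272 miRNAs (0.368%) was called, not a member, and 30 (11%) had an unadjusted p under 0.05.

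Within the 25 dark-cutting steers alone the slopes were 0.02 ± 0.34 for miR-103 and 0.20 ± 0.44 for miR-107. The difference between the 8 steers labelled 1/2, 2/3 or 3/4 and the 17 labelled 1/4 or 1/3 was -0.01 ± 0.12 for miR-103 and 0.05 ± 0.15 for miR-107 (log2, SE). None of these 4 values passed edgeR's test (lowest adjusted p = 0.989), beside 0 of 251 miRNAs (0%) in either fit, with 9 (3.59%) and 6 (2.39%) at an unadjusted p under 0.05. The interval of the last comparison, -0.25 to 0.23 for miR-103 and -0.26 to 0.36 for miR-107, gives the size of difference that these 25 steers could have hidden.

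**Figure D2:**
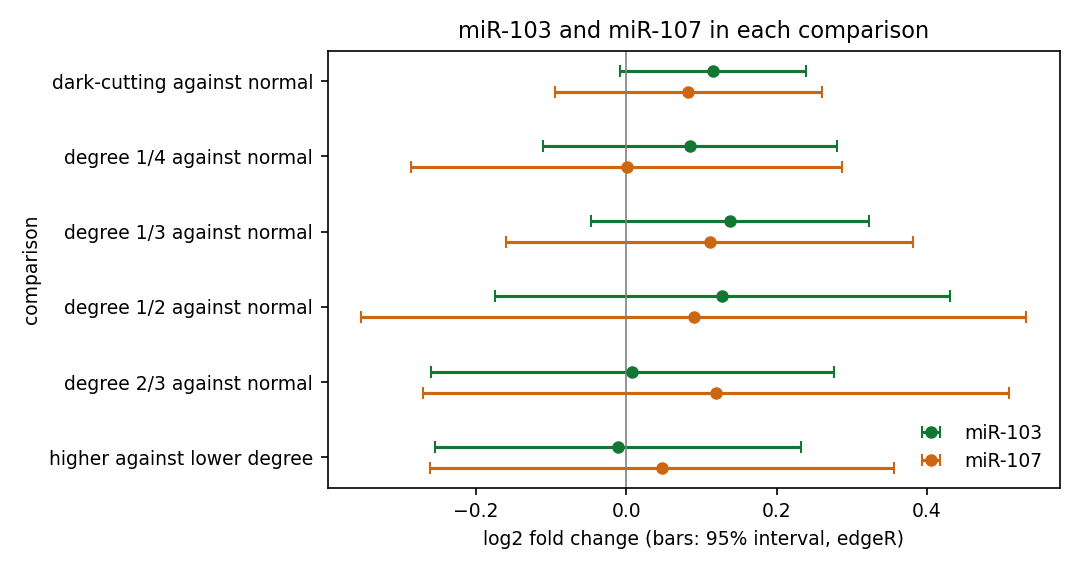
Log2 fold change of miR-103 and miR-107 in each comparison (horizontal axis), as edgeR estimates with 95% intervals. All 12 intervals include 0; the narrowest, miR-103 in dark-cutting against normal steers, runs from -0.0081 to 0.24.

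The labels number the steers: 26 have a number below 600 (18 normal, 8 dark-cutting) and 52 a number of 600 or more (35 normal, 17 dark-cutting). The labels do not say what the numbers stand for, so the ranges are only numbers. Within the lower range, miR-107 lay at 4.57, 4.94 and 5.60 log2 CPM in the lowest, median and highest normal steer. In the 8 dark-cutting steers there it lay at 5.11, 5.27 and 5.68, and all 8 were above the normal median of the range. Its log2 fold change there was 0.37 ± 0.12 (SE), 1.29-fold, with an interval of 0.12 to 0.62 (edgeR p = 0.00539, adjusted p = 0.453, rank 3 of 252).

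MiR-103 in the lower range lay at 7.46, 7.81 and 8.20 in normal and at 7.73, 8.01 and 8.38 in dark-cutting steers, of which 7 of 8 were above the normal median. Its log2 fold change was 0.24 ± 0.09 (SE; edgeR p = 0.0139, adjusted p = 0.584, rank 6). Without dark-cutting 1/4 replicate 1 it was 0.13, with an unadjusted p of 0.148. Neither member was called, beside 0 of 252 miRNAs (0%) in this range by edgeR; 14 (5.56%) had an unadjusted p under 0.05, both members among them. The 8 dark-cutting steers were 3 of degree 1/4, 3 of 1/3, 1 of 1/2 and 1 of 2/3. The miR-1 share also differed in this range, with a median of 84.9% in normal and 82.5% in dark-cutting steers, of which 1 of 8 was above the normal median. Its part in these values was not tested.

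At 600 or above the values were 0.08 ± 0.09 for miR-103 and -0.04 ± 0.12 for miR-107 (log2, SE; edgeR p = 0.335 and 0.747, adjusted p = 0.729 and 0.965). There too 0 of 244 miRNAs (0%) were called, with 23 (9.43%) at an unadjusted p under 0.05. In this range miR-107 was above the normal median in 9 of 17 dark-cutting steers. The difference between the ranges, tested as an interaction, was -0.38 ± 0.19 (log2, SE) for miR-107, with an interval of -0.76 to -0.01 (edgeR p = 0.0430, adjusted p = 0.852). It was -0.13 ± 0.13 for miR-103 (p = 0.344, adjusted p = 0.952). No miRNA was called in the interaction (0%, 0 of 252), and 10 (3.97%) had an unadjusted p under 0.05, so a difference between the ranges was not established for either.

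**Figure D3:**
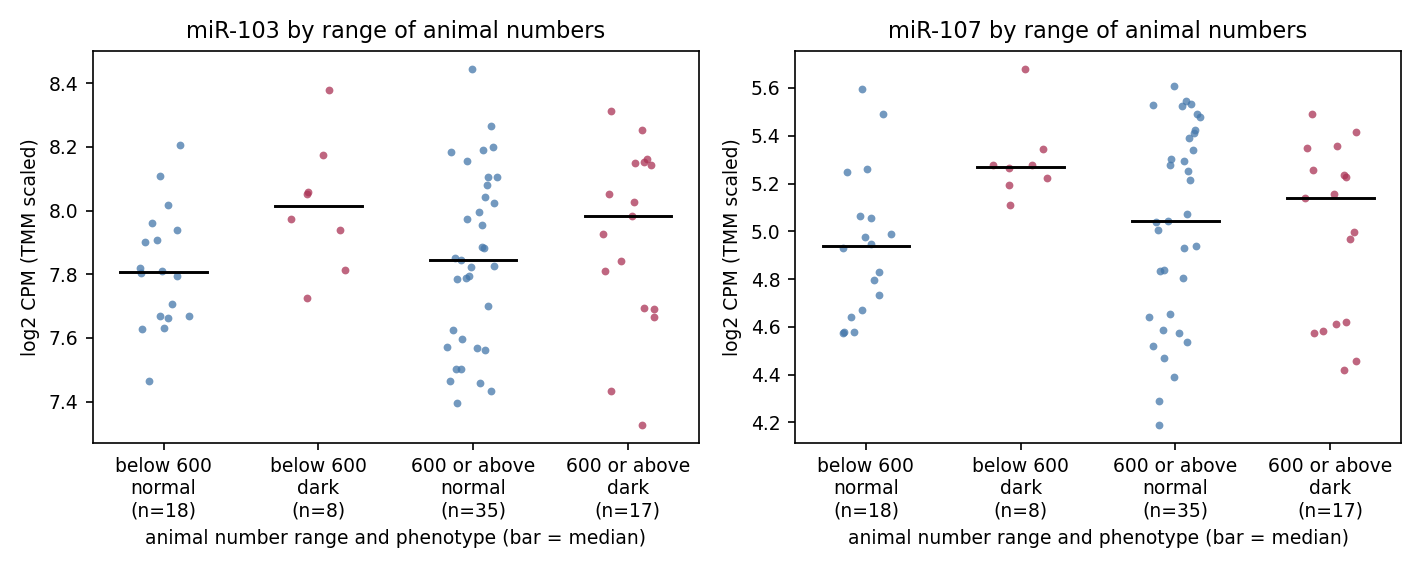
Level of miR-103 (left) and miR-107 (right) in log2 CPM, by phenotype within steers numbered below 600 and at 600 or above; points are steers and bars are medians. In the lower range all 8 dark-cutting steers lie at 5.11 or more for miR-107, where the normal median is 4.94, and in the upper range 9 of 17 lie above the normal median.

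The 2 paralogs were compared within each library, where the scaling of libraries cancels. Over all 78 steers the log2 ratio of miR-103 to miR-107 was 2.86 ± 0.287 (SD), a 7.27-fold excess of miR-103, and miR-107 made up 12.4% of the summed counts of the pair. In single steers the share of miR-107 ran from 8.26%, in a normal steer with 722 counts of miR-103 and 65 of miR-107 (95% Wilson interval 6.53% to 10.4%), to 18.8%. The latter was also a normal steer (interval 15.9% to 22.1%). These intervals cover counting error only and do not overlap. The 2 steers were picked as the extremes of 78, so the gap between their intervals is not a test. Counting alone would give the log2 ratio an SD of 0.159, which leaves 0.240 between steers and library preparations. In the dark-cutting steers the extremes were 2 steers of the same degree, 1/3, with shares of 8.40% and 17.2%.

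The ratio did not differ detectably by phenotype. Its median was 2.86 in normal and 2.88 in dark-cutting steers, with a Hodges-Lehmann difference of 0.03 (interval -0.12 to 0.18; two-sided exact Mann-Whitney p = 0.742, adjusted p = 0.922 over 6 comparisons). Against normal steers the difference was 0.06 at 1/4, 0.02 at 1/3, 0.05 at 1/2 and -0.13 at 2/3, where the interval was -0.47 to 0.30 (exact p = 0.405). Between higher and lower degrees it was -0.06, and all 6 adjusted p-values were 0.922. The largest of these 6 differences, at 2/3, was smaller than the SD of the ratio between normal steers, 0.287. By animal number the medians went opposite ways. Below 600 they were 2.89 in normal and 2.66 in dark-cutting steers, of which 2 of 8 were above the normal median of the range. At 600 or above they were 2.86 and 2.94, with 11 of 17 above. The ratio was not tested within the ranges.

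Across the 78 steers the levels of miR-103 and miR-107 went together, with Pearson's r of 0.645 and Spearman's rho of 0.642. The permutation p of 1e-05 is the smallest that 100000 resamples can give (adjusted p = 5e-05 over 5 relations). Without the 2 steers farthest from the median of miR-103, r was 0.613. It was 0.671 within normal and 0.571 within dark-cutting steers, with rho of 0.658 and 0.409, and 0.619 and 0.653 in the lower and upper range of animal numbers. Both values of a steer share its library and scaling, and with scaling by total count r was 0.863. How reads that match both paralogs were assigned is not known, and its part in this relation was not tested.

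The level of miR-107, and less clearly that of miR-103, went against the share of counts held by miR-1. For miR-107, r was -0.444 and rho -0.443 (permutation p = 4e-05 and 5e-05, adjusted p = 1e-04 and 0.000125), and r was -0.431 within normal and -0.485 within dark-cutting steers. Without the 2 steers farthest in miR-1 share it was again -0.444, and in the lower and upper number range -0.450 and -0.444. For miR-103, r was -0.273 and rho -0.243 (permutation p = 0.0153 and 0.0323, adjusted p = 0.0255 and 0.0538), so that rho did not pass after adjustment. Its r was -0.268 without the 2 farthest steers, -0.255 within normal and -0.312 within dark-cutting steers, and -0.148 and -0.315 in the lower and upper number range. A higher miR-1 share leaves fewer counts for all other miRNAs, which TMM is meant to offset, and with scaling by total count r was -0.737 for miR-107 and -0.714 for miR-103. No relation to the total count of the library passed (r = -0.146 and rho = -0.200 for miR-103, permutation adjusted p = 0.25 and 0.0975; r = -0.0557 and rho = -0.0134 for miR-107, adjusted p = 0.631 and 0.908).

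**Figure D4:**
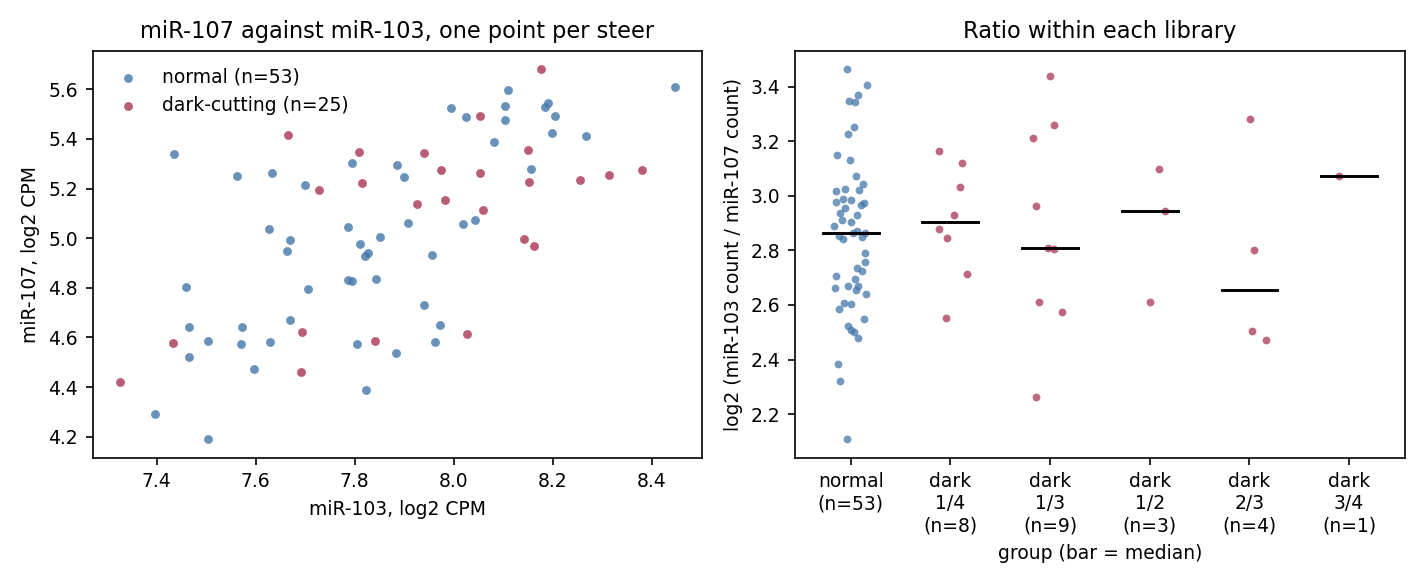
Left, miR-107 against miR-103 in log2 CPM, 1 point a steer, with Pearson's r of 0.645 over 78 steers. Right, log2 ratio of miR-103 to miR-107 counts (0.5 added to each) within each library by group, with bars at group medians; the medians are 2.86 in normal and 2.88 in all dark-cutting steers.

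MiR-103 was one of the less variable miRNAs between steers. Its SD of log2 CPM in the normal steers was 0.248, which was the 27th lowest of 252, and 89.3% of the tested miRNAs had a larger SD. Counting accounts for an SD of 0.0561, which leaves 0.241 between animals and library preparations. The 35 miRNAs within 1 log2 unit of its level had a median SD of 0.301. MiR-103 has been used as a reference miRNA in PCR, as have miR-191 and miR-423. MiR-107 had an SD of 0.382, rank 106 from the lowest, close to the median of 0.380 for 39 miRNAs of similar level. At its lower counts, counting accounts for an SD of 0.153, which leaves 0.350, so that miR-107 varied more than its paralog also after counting error was taken off.

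**Figure D5:**
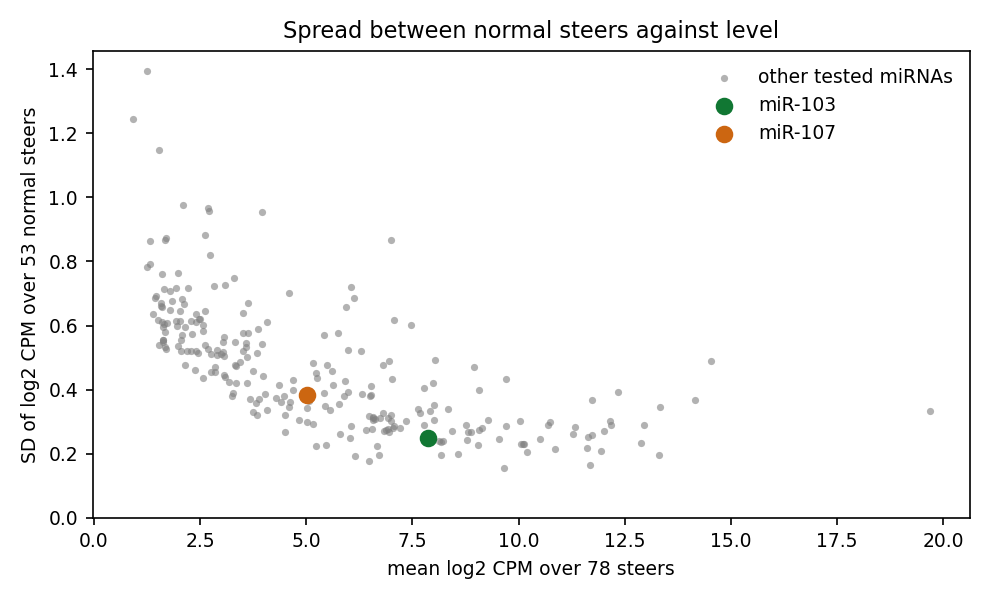
SD of log2 CPM over the 53 normal steers against the mean over all 78 steers, 1 point for each of the 252 tested miRNAs. MiR-103 lies near the lower edge at an SD of 0.248, and miR-107 lies at 0.382, amid miRNAs of its level.

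The miRNAs whose levels were most like those of each member were ranked by Spearman's rho over the 78 steers, as a description. For miR-103 they were miR-320a (0.661), miR-107 (0.642), miR-423-3p (0.601), miR-193a-5p (0.572) and miR-191 (0.571). For miR-107 they were miR-103 (0.642), miR-455-3p (0.432), miR-17-5p (0.383), miR-185 (0.363) and miR-10174-3p (0.361). The median rho over the 251 other miRNAs was 0.0228 for miR-103 and 0.0263 for miR-107. Setting the members aside, the lists of the 5 most alike shared 0 miRNAs and the lists of 20 shared 6. Among these 6, miR-10174-3p and miR-23b-3p had nearly the same mean (10.12 and 10.11 log2 CPM) and SD in normal steers (0.231 for both). They may thus be 1 signal counted 2 times. MiR-107 thus had 1 close match, its paralog, and miR-103 had several. The unknown assignment of reads that match both paralogs also bears on their match, and its part was not tested. The most opposite levels were those of miR-374a for miR-103 (-0.649) and miR-30e-5p (-0.544) and miR-1 (-0.500) for miR-107.

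The miR-15/16 family carries the seed of miR-103 and miR-107 shifted by a base, and its members repress cyclins and the survival factor BCL2. Of 9 listed relatives 8 were tested for dark-cutting against normal. Of these, 4 had log2 fold changes above 0 and 4 below, with a median of -0.03 against -0.0091 for all 252 miRNAs, and 0 were called. MiR-16a, also abundant in red blood cells, had the lowest p, with -0.17 ± 0.08 (log2, SE; edgeR p = 0.0349, adjusted p = 0.416). The others were miR-16b at -0.11, miR-195 at -0.09, miR-424-5p at -0.06, miR-15b at 0.0027, miR-15a at 0.06, miR-497 at 0.08 and miR-503-5p at 0.20. Their levels did not follow miR-103 closely, with rho from -0.503 for miR-16a to 0.248 for miR-15b.

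A list of 42 miRNAs described in insulin signalling and glucose handling, the 2 members included, held 38 that were tested; miR-33a, miR-33b, miR-375 and miR-122 were too low. Of the 38, 22 had a log2 fold change above 0 in dark-cutting steers, beside 46% of all tested miRNAs, and 0 were called, with a median of 0.02 against -0.0091 for all. MiR-27a-5p, from the passenger arm of an inhibitor of fat cell formation, had the largest at 0.46 ± 0.17 (log2, SE). Its mean level, 3.36 CPM, was the lowest of the 38. Its edgeR p was 0.00926 and its adjusted p 0.277, and it was 1 of 38 at an unadjusted p under 0.05, beside 9.13% of all. MiR-378b at 0.21 ± 0.13 and miR-378c at 0.13 ± 0.07 came next, from a family tied to mitochondrial metabolism. On the other side stood miR-223 at -0.25 ± 0.17, a myeloid miRNA with a mean level of only 7.33 CPM. Next to it were miR-143 at -0.23 ± 0.12, which impairs insulin signalling in the liver of obese mice, and miR-29b at -0.19 ± 0.11. The latter is of a family that dampens insulin-driven glucose uptake.

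Apart from miR-143, the most abundant members of the list were closer to 0. MiR-133a, a muscle miRNA that affects glucose transporter levels in heart cells, was at -0.02, and miR-26a, which improves insulin sensitivity in liver, at -0.02. Let-7f was at 0.04 and let-7a-5p at 0.08, of a family whose excess impairs glucose tolerance in mice, and the endothelial miR-126-3p was at -0.10. Of the abundant and largest-change members named here, miR-378c was the most like miR-103 (rho 0.437) and miR-126-3p the most opposite (rho -0.440). Among the other tested members of the list, miR-93 (rho 0.511) and miR-7 (rho -0.539) went further.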

How the data were processed

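Total RNA from frozen biopsies was made into small RNA libraries with a NEXTflex kit, per the labels' protocols. FastQC, Trimmomatic 0.32 and DESeq2 1.34.0 are named per the submitters' processing notes; the aligner, counting rule, reference and build were not given in the sources used here. No positions or sequences are printed. The authors deposited whole-number counts per miRNA and steer. The authors' deposited table gives the mean normalized signal, log2 fold change, Wald score and p-value; its Wald scores were matched within 7.55e-08 by fitting the phenotype contrast with DESeq2 to rows of at least 10 counts.

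The test was that of edgeR 4.0.16 under R 4.3.3 (robust quasi-likelihood F test, TMM, Benjamini-Hochberg, threshold 0.05). Between phenotypes, filterByExpr at a minimum count of 10 left 252 miRNAs. For degrees, the equivalent of 10 counts in 8 libraries and 15 in all left 272, or 251 within dark-cutting steers. Log2 CPM used a prior count of 2, and ratios used 0.5. Steers are separate animals by their numbers, and no 2 libraries were near copies (3003 pairs, smallest chi-square per degree of freedom 10.4). Alternatives used DESeq2 1.42.0, limma 3.58.1, other scalings and filters, the summed rows, and each steer left out. The fits were tried on counts simulated from the model they assume, with changes larger than those estimated for the members. This does not show how they perform at changes of the members' size.

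Named miRNAs are the 2 members, the 5 most alike to each, tested miR-15/16 relatives, the 6 most abundant and 3 largest changes in each direction of the insulin list, and neighbours in level. Others (the most opposite miRNAs, untested list members, miR-93, miR-7, miR-206, miR-23b-3p and miR-21-5p) were named after their values were seen. The members and lists were chosen with earlier results of these data known.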

Additional observations from a re-analysis of the deposited data

How the results depend on the processing

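No alternative brought miR-103 or miR-107 to an adjusted p under 0.05 in any comparison. Between the phenotypes, miR-103 kept a log2 fold change above 0 in all 10 alternatives (0.08 to 0.24, adjusted p 0.232 to 0.729) and with each steer left out (0.10 to 0.15). MiR-107 ranged from -0.038, in the steers numbered 600 or above alone, to 0.37 below 600, and from 0.05 to 0.12 with each steer left out. Scaling by total count raised the median of all miRNAs by 0.11 and gave 0.23 for miR-103 and 0.18 for miR-107; below 600 it raised that median by 0.24 and gave 0.48 and 0.60 (adjusted p = 0.0956 for both). These alternatives below 600, and those of the interaction, were chosen after seeing the data. The interaction of miR-107 was -0.63 to -0.39 under them and -0.46 to -0.32 with each steer left out, where the unadjusted p was 0.0157 to 0.0995.

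Some values changed sign, and not only those near 0. At degree 1/2, with 3 steers, the main values were 0.13 for miR-103 and 0.09 for miR-107. MiR-107 at degree 1/4 was -0.00066 with the number range as a covariate and -0.039 to 0.070 with each steer left out. MiR-103 in higher against lower degrees was 0.0065 with DESeq2's size factors, 0.024 with total counts, 0.026 without miR-1 in them, 0.020 without a filter, 0.0066 by DESeq2, 0.0073 by limma-voom and 0.025 with the 2 rows summed. The ratio at 1/3 was -0.019 by a quasibinomial model. With each steer left out, the ranges were -0.026 to 0.24 for miR-103 and -0.042 to 0.28 for miR-107 at 1/2, and -0.11 to 0.26 for the slope of miR-103 within dark-cutting steers. They were -0.045 to 0.055 for miR-103 and -0.0063 to 0.15 for miR-107 in higher against lower degrees. The ratio ranged from -0.055 to 0.094 at 1/3, -0.054 to 0.16 at 1/2 and -0.10 to 0.0021 between degrees. The cause was not tested. Among values that kept their sign, some moved by over 1.5 times with 1 steer left out: miR-107 at 1/3 was 0.055 without 1/3 replicate 5 and 0.18 without replicate 9, at 2/3 it was 0.011 without 2/3 replicate 1 and 0.37 without replicate 3, and its slope within dark-cutting steers was 0.041 and 0.55 without these last 2 steers. MiR-103 was 0.014 at 1/4 without 1/4 replicate 1 and 0.12 at 2/3 without 2/3 replicate 3, and without the latter the slope of miR-107 over all steers was 0.34. The ratio against normal ranged from 0.0049 to 0.052 for all dark-cutting steers, 0.016 to 0.11 at 1/4 and -0.23 to -0.046 at 2/3.

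Calls over all miRNAs between the phenotypes were 1 with total counts without miR-1 and 2 without a filter. Those of the slope over all steers were 3 with DESeq2's size factors, total counts, total counts without miR-1, no filter, DESeq2 and the 2 rows summed, 0 with limma-voom, and 0 to 3 with each steer left out; at 2/3 they were 0 to 1. With 3 and 4 steers at 1/2 and 2/3, precision is limited by their number. No paired analysis was possible because each steer gave 1 library under 1 phenotype label.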
